A study of Solanum lycopersicum and Solanum pimpinellifolium with 9 samples.

Results

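Genes shared by root and fruit are those whose transcripts were abundant in tomato root and in at least 1 stage of the fruit while being scarce in stem, leaf and flower. A gene was a member when MoneyMaker root and the highest of the 3 MoneyMaker fruit libraries both stood at 25 RPKM or more, and when both lay at least 2 log2 units (4-fold) above each of stem, leaf and flower on the scale log2(RPKM + 5). RPKM is the number of reads scaled to the length of the gene model and to the depth of the library. The rule returned 124 of the 34727 gene IDs in the deposited table. These are 0.990% of the 12519 genes that reached 25 RPKM in some MoneyMaker library. The root condition alone was met by 801 genes (6.40%) and the fruit condition alone by 1186 (9.47%), so the members are 15.5% of the former and 10.5% of the latter. Since MoneyMaker libraries chose the members, the levels in those libraries describe the choice and are not a finding, apart from the course over the fruit stages, of which the rule used only the highest.

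Root and fruit are organs with different work. Roots take up water and mineral ions, are fed by sucrose from the shoot and are exposed to soil microbes, whereas a fleshy fruit imports sugar and, at ripening, loses chlorophyll, gains carotenoids, softens its cell walls and produces ethylene. Both are sink tissues that depend on the shoot for carbon, with the green fruit adding some photosynthesis of its own. The deposited table lists gene IDs only, and 0 of them occur in the reference table of 41476 genes, so no name or role is given to any member here, and marker genes of the tissues could not be looked up.

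The study sequenced cDNA of 9 tomato tissues on the 454 Titanium system, 1 library per group, from soil-grown greenhouse plants with 16 h of light and 8 h of dark. Solanum lycopersicum cultivar MoneyMaker, the cultivated tomato, gave grown root, upper stem below the apical meristem, fully expanded leaf of 2 to 3 weeks, and flower at full anthesis without sepals. It also gave fruit at 3 stages, namely mature green (fully expanded, green), breaker (turning colour) and ripe (red). Accession LA0722 of Solanum pimpinellifolium, a wild relative with red fruit, gave fully expanded leaf of 2 to 4 weeks and ripe fruit, but no root, stem, flower or younger fruit is among the samples. The labels do not say how many plants were pooled. With 1 library per group no difference has a replicate check, no p-value was computed, and intervals below cover counting error only.

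Depth limited what could be seen of the less abundant members. The read totals implied by the RPKM steps ran from 211201 in LA0722 ripe fruit to 380305 in MoneyMaker leaf, with 213741 in flower and 214610 in breaker fruit. A floor of 3 reads, the most that a count of 0 allows, was worth 7.89 RPKM on a coding length of 1 kb in leaf and 14.2 RPKM in LA0722 ripe fruit. Lengths and reads were inferred from the steps of the RPKM values as the smallest that solve them, so both are lower bounds, and more so for a gene seen in few libraries. With that limit, the inferred coding length of the members had a median of 360 nt, against 846 nt over the 12519 genes. Among the 43 members above 0 in 7 or more libraries, where the inference is firmer, the median was 669 nt, against 1134 nt over all genes so detected. On a short model 1 read can reach 25 RPKM. The median member held 15.0 reads in root and 15.0 in its highest fruit library, but 24 members were inferred to hold 3 reads or fewer in both. At least 10 reads in root and in the highest fruit library stood behind 65 members, whose median length was 702 nt, and results are also given for these. Of the 92 members listed at 0 in flower, 37 had a root value no higher than what 3 flower reads would be worth, so their scarcity in flower was not detectable at this depth if the inferred lengths hold. The minimum of 10 root reads excludes this case for the 65 better covered members.

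**Figure D1:**
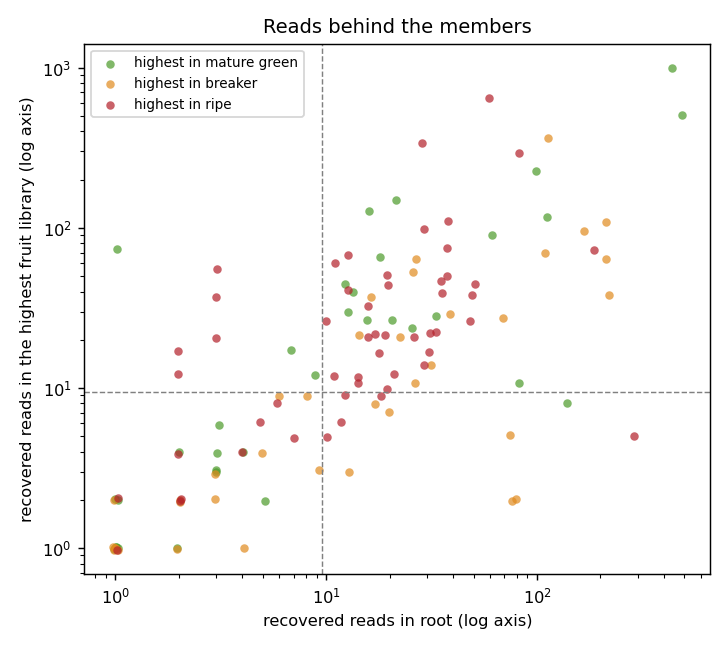
Recovered reads behind each of the 124 members, in root (x axis, log scale) and in its highest MoneyMaker fruit library (y axis, log scale), coloured by fruit stage, with points shifted by up to 3% to separate them. Dashed lines bound the 65 members with 10 or more reads in both, at the upper right, and the 24 members with 3 reads or fewer in both lie at the lower left, where points overlap.

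By the rule the members were scarce in the other organs, and stem was the nearest of these. In stem, leaf and flower together 58 members were listed at 0, and 20 reached 25 RPKM in some of them, 19 in stem, 10 in leaf and 8 in flower. Stem held the highest value of the 3 organs for 42 members, and leaf and flower for 12 each. Stem also set the size of the group. Without the condition on stem 630 genes would have met the rule, against 172 without leaf and 181 without flower. The member count followed the scaling of the libraries too: median-ratio size factors, which raise flower by 1.37 and leaf by 0.61 log2 units and lower root by 0.35, left 67 genes, all of them among the 124. Just inside the threshold lay Solyc08g080670, with a smaller margin of 2.005 log2 units, and Solyc04g077620, with 2.007. Just outside lay Solyc08g076860, with 1.999, and Solyc03g113220, with 1.985.

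**Figure D2:**
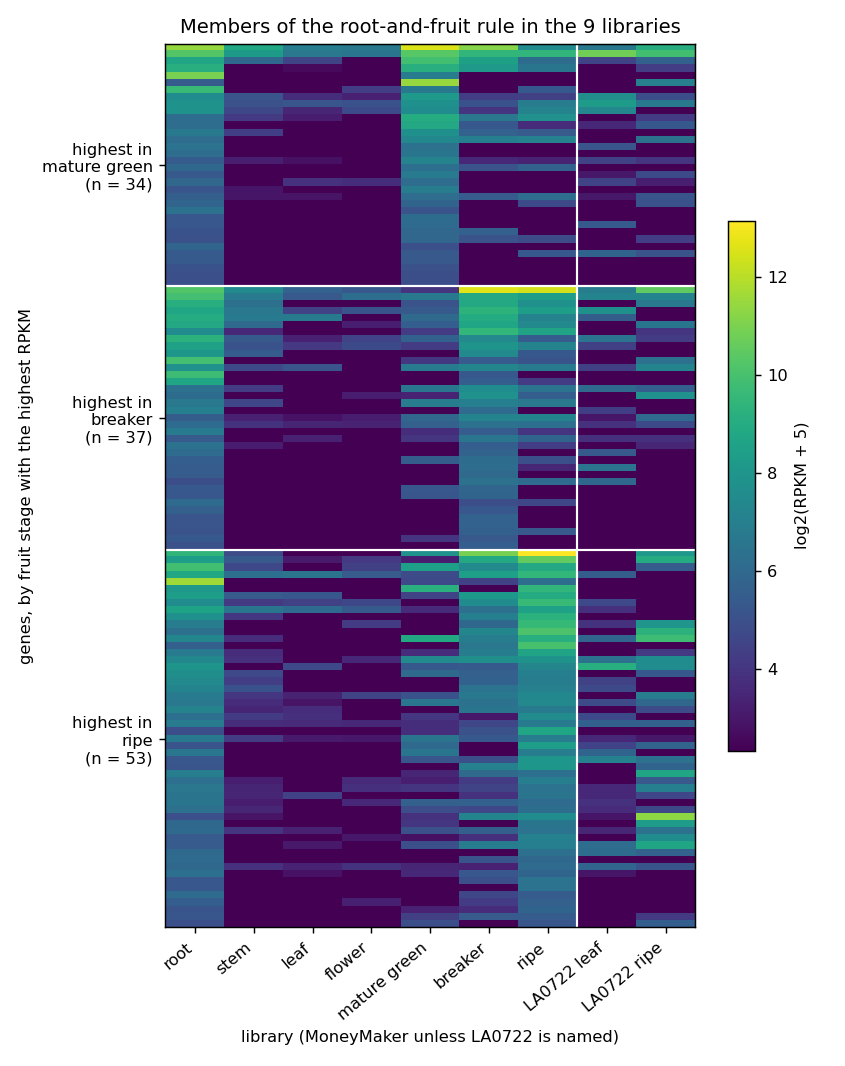
Heat map of log2(RPKM + 5) for the 124 members (rows) in the 9 libraries (columns), with rows grouped by the MoneyMaker fruit stage of highest RPKM. By the rule the stem, leaf and flower columns are darker than root and the top fruit stage, with 19, 10 and 8 members at 25 RPKM or more, beside 45 in LA0722 ripe fruit and 27 in LA0722 leaf.

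Members were of moderate abundance in root, with a median of 72.1 RPKM and quartiles of 38.2 and 208 RPKM, and reached a median of 111 RPKM in their highest fruit library. Their sum made up 2.19% of all RPKM in root, and of MoneyMaker fruit 1.39% when mature green, 1.53% at breaker and 2.10% when ripe. Their share was 0.169% in stem, 0.0642% in leaf and 0.0469% in flower. The libraries are bulk samples, in which fewer cells of a type and less RNA per cell cannot be told apart. Solyc09g090980 had the highest level common to root and fruit. Root held 2756 RPKM of it, stem 448, leaf 114 and flower 96.9. MoneyMaker fruit went from 5878 RPKM when mature green to 2306 at breaker and 184 when ripe. LA0722 had 96.3 RPKM in leaf against 539 in its ripe fruit. Root and the younger fruit were thus high and ripe fruit was near the level of leaf, with the drop from mature green to ripe coming to 32.0-fold (95% exact interval 21.4 to 50.2, on 985 and 24 reads). For the second, Solyc04g080280, root held 1227 RPKM, stem 297, leaf 97.4 and flower 86.6. MoneyMaker fruit held 1281 RPKM when mature green, 690 at breaker and 698 when ripe. LA0722 had 1797 RPKM in leaf and 947 in fruit, so its highest level of all was in a leaf. Its coding length was 270 nt, and RPKM of so short a model can be inflated by reads reaching into untranslated parts.

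Root and the highest fruit library chose the members, so their relative size is given as a description. Root was above the highest fruit library for 47 members and below it for 77. The difference reached 4-fold on the scale of the rule for 6 members in favour of root and 15 in favour of fruit. Against single stages root was higher by the rule of size for 60 members in mature green (background over all genes compared 18.5%), 42 in breaker (23.3%) and 41 in ripe fruit (25.3%). Root was lower than mature green for 3 (10.6%), than breaker for 2 (11.6%) and than ripe fruit for 12 (11.0%). These counts are out of 124, since each member has 25 RPKM in root by the rule, which favours the root side. Solyc06g005470 leaned most to root, at 3145 RPKM there, against 21.4, 17.3 and 68.5 RPKM in fruit from mature green to ripe, and was listed at 0 in stem, leaf, flower and both LA0722 libraries. Its lead over ripe fruit was 45.9-fold (19.5 to 143), although only 5 reads in ripe fruit made it a member. The next, Solyc07g066360, stood at 950 RPKM in root and at 37.9 in breaker fruit on 2 reads. At the other end Solyc00g265510 stood at 2844 RPKM in mature green fruit (74 reads) and at 39.5 RPKM in root on a single read, with an inferred length of 75 nt. Solyc05g014300 stood at 45.5 RPKM in root (3 reads) and in fruit at 0, 95.6 and 1024 RPKM from mature green to ripe, the last of them 22.5-fold above root (7.30 to 112). Over root and the 3 fruit stages 6 members (4.84%) stayed within 1 log2 unit, beside 25.8% of the 5286 genes at 25 RPKM in root and in some fruit stage, to which the rule's condition on the other organs was not applied. Of the better covered ones, Solyc10g008400 varied least, with 160 RPKM in root and 169, 203 and 222 RPKM from mature green to ripe.

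Over the fruit stages the members were split, with ripe the most frequent stage of the highest level. Mature green was highest for 34 members, breaker for 37 and ripe for 53. Ripe was thus the top stage of 42.7% of members, beside 37.6% of the 1062 genes that met the fruit condition but not the root condition. Among the 65 better covered members ripe was highest for 34 (52.3%), mature green for 16 and breaker for 15. A marked peak, 2 log2 units or more above both other stages, was seen at mature green for 19 members (15.3%, beside 13.2% of the genes of fruit without root), at breaker for 11 (8.87%, beside 9.13%) and at ripe for 19 (15.3%, beside 9.23%). All 3 stages reached 25 RPKM for 35 members (28.2%, beside 36.4% of the genes of fruit without root), breaker and ripe but not mature green for 30 (24.2%, beside 16.5%), and a single stage for 47 (37.9%, beside 37.1%). Of the 65 better covered members, all 3 stages reached that level for 29 (44.6%), and breaker and ripe but not mature green for 19 (29.2%). Mature green alone did so for 5 (7.69%) and ripe alone for 8 (12.3%). Their marked peaks were 7 at mature green (10.8%), 2 at breaker (3.08%) and 11 at ripe (16.9%). The genes of fruit without root were not held to a minimum of reads. Whether these shares differ was not tested.

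Stage by stage, members were higher or lower more often than all genes compared, which a rule based on the highest stage favours. From mature green to breaker 44 of the 109 members compared were higher and 30 lower, where all genes gave 8.51% and 11.5%. The median difference was 1.02 log2 units, against -0.26 over all genes. From breaker to ripe 26 of 106 were higher and 17 lower (all genes 7.07% and 8.53%), and the median difference was 0.46. Over the whole span from mature green to ripe, 47 of 110 were higher and 25 lower (all genes 8.51% and 15.2%), so that higher members outnumbered lower ones where over all genes lower ones prevailed. The 65 better covered members gave 31 higher and 10 lower over that span. Genes of fruit without root, chosen with the same fruit condition, gave 32.7% higher and 21.3% lower, beside 42.7% and 22.7% for the members. From mature green to breaker they gave 33.7% higher and 19.8% lower, beside 40.4% and 27.5% for the members. From breaker to ripe they gave 16.7% and 17.4%, beside 24.5% and 16.0%.

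**Figure D3:**
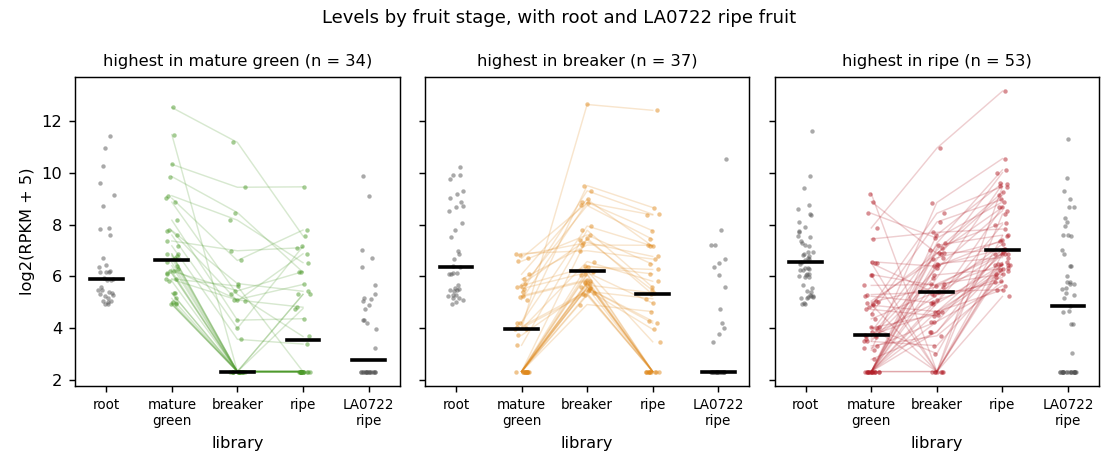
log2(RPKM + 5) of the members in root, the 3 MoneyMaker fruit stages and LA0722 ripe fruit (x axis), in a panel for each stage of highest level; points and thin lines are genes and black bars are medians. Members highest in mature green (left, n = 34) had medians of 0 RPKM at breaker and 6.62 in ripe fruit, those highest in breaker (middle, n = 37) kept a median of 34.4 RPKM in ripe fruit, and those highest in ripe fruit (right, n = 53) climbed through breaker and had the highest median in LA0722, 23.9 RPKM.

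The genes with the sharpest peaks show 2 kinds of evidence. In mature green, Solyc00g265510, given above, was followed by Solyc09g008560, which held 112 RPKM on 44 reads there, 0 at breaker and when ripe, and 31.2 RPKM in root on 12 reads. In breaker the sharpest were Solyc06g076080, at 63.8 RPKM, and Solyc09g010980, at 61.3 RPKM, both on 3 reads and both at 0 in the other stages. In ripe fruit they were Solyc07g052310, at 82.2 RPKM, and Solyc00g118680, at 74.7 RPKM, both on 2 reads. These 4 have a top stage inferred from 3 reads or fewer, near the floor. Among the better covered members, picked after their values were seen, Solyc08g078460 peaked in breaker, with 5.11, 215 and 42.6 RPKM from mature green to ripe. Solyc10g084600 peaked in ripe fruit, with 0, 56.5 and 751 RPKM at the 3 stages, a 13.3-fold step from breaker to ripe (4.96 to 50.2). Solyc07g009500 had the most reads of the ripe members. Root held 672 RPKM and stem 22.5, and leaf and flower were listed at 0. Fruit held 229 RPKM when mature green, 1977 at breaker and 9103 when ripe. Its level climbed at both steps, 8.62-fold (5.38 to 14.5) and then 4.61-fold (3.76 to 5.68), on a coding length of 264 nt.

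LA0722 offers a contrast of fruit with another organ in libraries that took no part in the rule. Ripe fruit of LA0722 was higher than LA0722 leaf for 30 of the 57 members compared (52.6%), against 19.3% of all genes compared. It was lower for 12 (21.1%), against 19.4%. The median difference was 2.42 log2 units, against 0.02 over all genes. Of the 124 members 57 reached 25 RPKM in at least 1 LA0722 library, beside 621 of the 1062 genes of fruit without root. Over all 34727 gene IDs, 7551 did so. The remaining 67 members reached that level in neither library. Listed at 0 in both were 42 members, for which no share over other genes was computed. LA0722 ripe fruit alone reached 25 RPKM for 36.3% of members. This was beside 55.2% of the genes of fruit without root and 23.6% of the 23089 genes above 0 in some library. The share higher in fruit was 41.2% at a level of 10 RPKM and 43.5% with a pseudocount of 20 RPKM. With no minimum level it was 20.6%, since members at 0 in both libraries then count. No share over all genes was computed at these settings, so the 19.3% is not their background. For the 65 better covered members the counts were 22 higher and 6 lower of 38 compared. Genes of fruit without root gave 61.4% higher and 4.99% lower of 621 compared. Members whose top stage was ripe were higher in LA0722 fruit for 18 of 28 compared and lower for 2. Members of mature green were higher for 5 and lower for 4 of 14, and members of breaker higher for 7 and lower for 6 of 15. No younger LA0722 fruit is at hand, so these stages have no counterpart there. Solyc03g005020 led, with 2.73 RPKM in LA0722 leaf (1 read) and 2523 in LA0722 ripe fruit (649 reads), 925-fold apart (165 to 36576). Solyc12g088220 followed, listed at 0 in LA0722 leaf and at 621 RPKM in ripe fruit, at least 71.2-fold higher. MoneyMaker root held 75.1 RPKM of it, breaker fruit 151 and ripe fruit 1103, with the remaining MoneyMaker libraries listed at 0. Leaf led in LA0722 for Solyc11g068700, at 213 RPKM in leaf on 10 reads and 0 in ripe fruit, with an inferred length of 156 nt. Leaf also led for Solyc11g069940, at 155 RPKM on 20 reads and 0 in ripe fruit, at least 4.68-fold. The bound for Solyc11g068700 is smaller, as it rests on fewer leaf reads.

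Between ripe fruits, 43 of the 90 members compared were lower in LA0722 than in MoneyMaker (47.8%, against 14.1% of all genes), 43 lay within 2 log2 units and 4 were higher (4.44%, against 9.09%), with a median difference of -1.86 log2 units beside -0.22. MoneyMaker ripe fruit chose 53 of the members, which leans toward this direction. Among members that another stage chose, 6 of 16 for mature green and 10 of 21 for breaker were lower. However, 13 of these 16 and all 21 had 25 RPKM or more in MoneyMaker ripe fruit. Only such members can be called lower, which favours the same direction. Genes of fruit without root, on which the same choice bears, gave 27.7% lower and 9.65% higher. Of the 87 members at 25 RPKM or more in MoneyMaker ripe fruit, 33 (37.9%) were listed at 0 in LA0722 ripe fruit, beside 15.5% of the genes of fruit without root and 8.51% of all genes at that level. For 26 of the 33 the floor of 3 reads in LA0722 lay below the MoneyMaker value. The median number of reads in MoneyMaker ripe fruit was 17.0 for the members and for all genes at that level, and 26.5 for genes of fruit without root. With 59 better covered members at that level the listed zeros came to 30.5%. The part of depth in the difference from genes of fruit without root was not tested, nor was the mapping of LA0722 reads to the gene models used for both species.

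**Figure D4:**
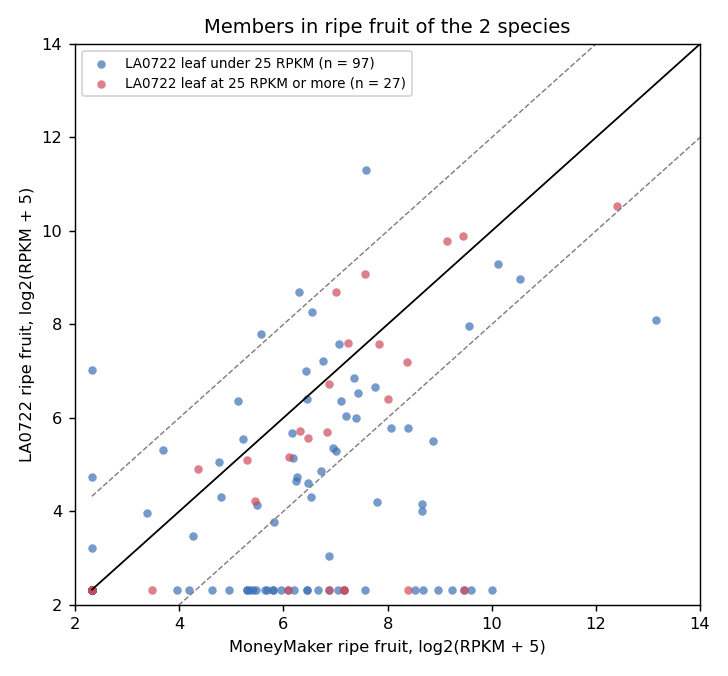
log2(RPKM + 5) of each member in ripe fruit of MoneyMaker (x axis) and LA0722 (y axis); the solid line marks equal levels, dashed lines 2 log2 units to either side, and red points the 27 members at 25 RPKM or more in LA0722 leaf. Of the 90 members at 25 RPKM or more in either fruit, 73 lie below the solid line, and the 61 members listed at 0 in LA0722 ripe fruit form the row at the bottom, where points overlap.

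Single members show how far the species could part. For Solyc03g005020, MoneyMaker root held 26.7 RPKM and stem 2.44, with leaf and flower at 0, while fruit held 9.47 RPKM when mature green, 142 at breaker and 188 when ripe. At 2523 RPKM its LA0722 ripe fruit was 13.4-fold above that of MoneyMaker (10.3 to 17.7), the largest lead of LA0722 among members with more than 2 reads in LA0722 ripe fruit. Solyc00g265510 had a larger difference on the log2 scale, 4.71, from 0 to 126 RPKM on 2 reads. In the opposite direction Solyc05g014300, described above, had no read in ripe LA0722 fruit, which puts it at least 14.1-fold below MoneyMaker. For Solyc06g075780 root held 185 RPKM, stem 12.8, leaf 17.0 and flower 20.1. MoneyMaker fruit held 0 RPKM when mature green, 190 at breaker and 771 when ripe. LA0722 leaf held 21.4 RPKM, but its ripe fruit was at 0, which is at least 25.2-fold below the MoneyMaker fruit. The strongly ripe-peaking Solyc07g009500 stood at 269 RPKM in LA0722 ripe fruit, 33.8-fold below MoneyMaker (20.4 to 60.8).

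In LA0722 leaf 69 members were listed at 0 and 27 reached 25 RPKM (21.8%). Of the 23089 genes above 0 in some library, 23.6% reached that level there. Those genes did not have to reach 25 RPKM in any library, whereas each member did in root and in a fruit stage. The 2 shares therefore do not show whether a low level in LA0722 leaf was particular to the members. For the 69 the median floor of 3 reads was worth 27.7 RPKM. Of the 30 members compared between the leaves 22 were higher in LA0722 (73.3%, against 17.1% of all genes) and 2 lower (6.67%, against 15.2%). MoneyMaker leaf is low by the rule, which fixes this direction for nearly every member present in LA0722 leaf. Genes of fruit without root gave 32.1% higher and 14.4% lower, but their MoneyMaker leaf had to be low against fruit only. It reached 25 RPKM for 15.4% of them, beside 8.06% of members, so the 2 groups are not chosen alike. Solyc04g080280, at 97.4 RPKM in MoneyMaker leaf, was 18.5-fold higher in LA0722 leaf (9.75 to 39.3), which was the highest LA0722 leaf value of any member. Solyc12g006230 went from 20.9 RPKM in the MoneyMaker leaf to 541 in that of LA0722, 25.9-fold higher (6.73 to 221). Root held 235 RPKM of it, and MoneyMaker fruit 34.3 RPKM when mature green, 37.0 at breaker and 147 when ripe. LA0722 fruit held 188 RPKM, so in LA0722 the leaf was above the fruit.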

How the data were processed

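The authors deposited RPKM values for 34727 gene IDs in 9 columns. HTSeq is named in the submitters' processing notes. Its version, how reads were aligned, to which build and gene models, and whether strand was used, is not given in the sources used here. Each column was assigned by its name, where the MoneyMaker berry column with a number in its name was taken as ripe fruit by elimination and the mature fruit column as mature green. Comparisons used differences of log2(RPKM + 5); higher or lower means 2 log2 units with 25 RPKM or more in the higher library, among genes with 25 RPKM in either. With 1 library per group no test was run. Whole reads were recovered from the RPKM steps, with coding lengths taken as multiples of 3 nt, which is an inference. Recovered reads summed to 94.6% to 99.8% of the implied totals, and 100.0% of values lay within 0.05 of a whole read, which the procedure itself required. The smallest length and reads that solve the steps were taken, so both are lower bounds. The recovery was tested on data simulated with these same lengths, which cannot show how far the lengths are too short. Fold intervals are exact binomial (Clopper-Pearson) at 95%. Against a count of 0 a fold is a lower bound from a floor of 3 reads per library. PCR copies are not independent molecules, so intervals and floors cover counting error only. Genes named lead by level, by margin of a stage, by difference between species or by nearness to the threshold, at most 2 IDs per direction; leaders in root against fruit, in LA0722 fruit against leaf, by evenness and among members with 10 reads were added after their values were seen. Lists of annotated families and tissue markers were not run, because 0 IDs matched a name. Members and lists were chosen with earlier results of these data known. Computations used Python 3.11.15, pandas 2.3.3 and scipy 1.17.1.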

Additional observations from a re-analysis of the deposited data

Results flagged for a closer look

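For 6 members the contrast of ripe fruit with leaf went opposite ways in the 2 species, ripe fruit being higher by the rule of size in MoneyMaker and leaf higher in LA0722. They are 7.32% of the 82 members with ripe fruit above leaf in MoneyMaker, beside 3.69% of the 2008 such genes in all and 1.71% of the 645 such genes of fruit without root. The least covered of the 6 rested on 2 reads in MoneyMaker ripe fruit and 1 in LA0722 leaf, and the next on 2 reads in each. The difference between the species was not tested, as each value is 1 library, and the MoneyMaker side was favoured by the rule. By the smaller of the reads in MoneyMaker ripe fruit and LA0722 leaf, the 2 best covered were Solyc11g069940 and Solyc04g071890. Solyc11g069940 differed by 3.68 log2 units in MoneyMaker, from 6.13 RPKM in leaf to 138 in ripe fruit (1 and 16 reads), and by -5.00 in LA0722, from 155 to 0 RPKM (20 and 0 reads). Its MoneyMaker fruit also had a gap at breaker, with 188 RPKM in mature green and 10.9 in breaker fruit. Solyc04g071890 differed by 2.13 log2 units in MoneyMaker, from 5.02 to 38.9 RPKM, and by -2.24 in LA0722, from 82.5 to 13.6 RPKM. Root was its main site, at 616 RPKM.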

How the results depend on the processing

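Of 263 recomputed values, 222 stayed within the spread set for them (1.5 times for the member count, the 95% binomial interval for shares of members) and 41 moved. The interval treats member genes as independent and is wide where few were compared, and the altered lists share members with the main list. The 222 therefore describe the labels given and do not measure how robust the shares are. No paired analysis was possible because each group has 1 library and nothing pairs the samples. The member count of 124 became 36 with a pseudocount of 20 RPKM, 204 at a level of 10 RPKM and with no minimum level, 40 at a level of 100 RPKM, 505 with 1 log2 unit, 40 with 3 log2 units, 61 with upper-quartile scaling, 67 with median-ratio size factors, 70 with the mean of the fruit stages, 65 with 10 reads and 630 without stem. Leaving out a fruit stage gave 101 or 102. The shares that moved are given next, as percentages of the members compared.

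With a pseudocount of 20 RPKM, breaker was highest for 16.7% and ripe for 52.8%, 9.38% were lower from breaker to ripe, and LA0722 leaf was higher than MoneyMaker leaf for 38.5% and lower for 0%. At 100 RPKM, ripe was highest for 52.5%, 53.3% were higher from mature green to breaker, 7.89% lower from breaker to ripe and 13.2% lower from mature green to ripe; 0% were higher in LA0722 than in MoneyMaker ripe fruit and 0% lower in LA0722 leaf. At that level root was higher than mature green for 60.0%, than breaker for 25% and than ripe for 17.5%, and lower than mature green for 0%. With no minimum level, 30.4% were higher from mature green to breaker, 20.6% higher in LA0722 ripe fruit than leaf, 32.8% lower in LA0722 than MoneyMaker ripe fruit and 19.1% higher in LA0722 leaf, since members at 0 in both libraries then count. With 1 log2 unit root was lower than breaker for 10.1% and higher than LA0722 ripe fruit for 51.1%. The main share with root higher than LA0722 ripe fruit was 62.9%, beside 31.4% of all genes compared. Each member has 25 RPKM or more in root by the rule, which favours this direction. With 3 log2 units 15.2% were higher and 9.09% lower from breaker to ripe, and 0% lower in LA0722 leaf, in root than breaker and in root than LA0722 ripe fruit. Among members with 10 reads, chosen after seeing the data as were the counts without an organ, ripe was highest for 52.3%, 6.67% were lower from breaker to ripe, and root was higher than MoneyMaker ripe for 18.5% and than LA0722 ripe fruit for 52.3%.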

Other observations

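Some members are neighbours in the order of the deposited table, which follows the IDs; by the Solyc naming convention the digits after the prefix give the chromosome. Of the 124 members 18 had another member within 5 places, in 9 pairs. This was 14.5% of the members, beside 39.5% of the 801 genes of the root condition and 35.4% of the 1186 of the fruit condition. Longer lists have more neighbours by their length alone, so these shares do not show whether neighbours were particular to the members. On chromosome 1, Solyc01g059980 and Solyc01g060020, both of 1083 nt, ran in parallel. Root held 462 and 571 RPKM of them and stem 60.3 and 74.0. MoneyMaker fruit held 42.6 and 29.3 RPKM when mature green, 422 and 460 at breaker and 167 and 212 when ripe, and LA0722 fruit held 87.4 and 96.2. Both peaked at breaker and both were listed at 0 in the leaves of both species. On chromosome 7, Solyc07g009510 lies next to Solyc07g009500 and has the same length of 264 nt. Root held 213 RPKM of it and MoneyMaker fruit 0 when mature green, 124 at breaker and 602 when ripe, and it was listed at 0 in LA0722 ripe fruit. Solyc10g009110 and Solyc10g009120 on chromosome 10 held 955 and 361 RPKM in root, and in MoneyMaker fruit 99.1 and 13.5 when mature green, 453 and 241 at breaker and 326 and 139 when ripe. How reads were divided between near-identical copies is not given in the sources used here, so values within a pair of equal length are uncertain. These pairs were chosen after their values were seen. By the digits of the IDs members fell on all 12 chromosomes, from 4 on chromosome 5 (0.474% of the genes there at 25 RPKM in some MoneyMaker library) to 16 on chromosome 3 (1.24%). Chromosome 7 had the highest share, 1.33%, and among IDs with the digits 00, which name no chromosome, 5 of 129 were members (3.88%).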
